A study of Mus musculus with 24 samples.

Results

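The Vmn1r genes encode the V1R class of vomeronasal receptors, and their chromosomal clusters were followed here through a ChIP-seq study of the histone H2AX in mouse cells that lack the deacylase SIRT7. A member was a bin of 1 Mb on chromosomes 1 to 19 in which at least 3 genes with a symbol starting with Vmn1r begin, in the annotation of mouse build GRCm38.p6. The rule found 23 bins of the 2738 in the deposited tables. They hold 357 of the 372 Vmn1r genes of those chromosomes, 225 of them protein-coding and 132 pseudogenes. One of the 23, the first bin of chromosome 7, met the rule only through 6 genes that the annotation places by the coordinates of unplaced scaffolds. It held 0 reads, so 22 bins were tested, and all 22 passed the minimum count.

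The 23 bins formed 13 clusters on 6 chromosomes (4, 6, 7, 13, 17 and 18). Each bin is named below by the first Vmn1r gene that starts in it. Chromosome 7 held the longest array, from Vmn1r91 to Vmn1r181, over the bins Vmn1r91 (20000001 to 21000000, 26 genes), Vmn1r119 (24 genes), Vmn1r-ps78 (25 genes) and Vmn1r259 (23 genes, to 24000000). The single bin with most genes was Vmn1r-ps92 of chromosome 13, with 52, where the array runs on into the next bin and ends with Vmn1r-ps135. The other runs of members were Vmn1r6 to Vmn1r-ps23 and Vmn1r-ps25 to Vmn1r54 on chromosome 6, Vmn1r66 to Vmn1r-ps69 on chromosome 7, and Vmn1r-ps139 to Vmn1r-ps150 on chromosome 17. The other 7 clusters were single bins, starting with Vmn1r-ps2 on chromosome 4, Vmn1r-ps5 and Vmn1r32 on chromosome 6, Vmn1r-ps88, Vmn1r55 and Vmn1r-ps86 on chromosome 7, and Vmn1r-ps151 on chromosome 18.

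The libraries came from female cells that the labels call TTF, on a C57BL6/CAST hybrid background, and all 24 labelled samples received 5 Gy of X-rays with 30 min of recovery, controls included. By the labels, WT and SIRT7-KO cells gave input DNA (chromatin with no immunoprecipitation), H2AX and γH2AX libraries, 2 of each. A further set gave H2AX and γH2AX from SIRT7-KO clones c22 and c9 (KO clones), from the same clones carrying S7WT (KO+WT clones), and from SIRT7-HY clones c5 and c7, where the labels do not explain HY. Each clone group is thus a pair of single clones, and no label ties the replicates of WT or KO to different cultures. Libraries of the first table end in NT or Xray by name, although every label states X-ray treatment, so they enter as 2 replicates of a group and are told apart only by that name, as NT-named or Xray-named. Cell identity could not be checked, because the tables hold DNA reads and no expression.

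Total reads ranged from 170013624 to 268180310 per library in the table of WT and KO cells, from 70349148 to 155364952 in the clones, and from 88317834 to 248337642 in the WT libraries of the clone table. The WT replicate 2 libraries of the clone table were identical to the NT-named WT libraries in 2738 of 2738 bins in each assay, so the tables are not independent for WT. The WT replicate 1 libraries were not the Xray-named ones. They had 157244803, 88317834 and 135517343 reads in input, H2AX and γH2AX, against 268180310, 207369934 and 251858055. The labels list 2 WT samples per assay, so which of these libraries are the labelled replicates cannot be told. γH2AX libraries of a pair lay farther apart (SD of the log2 difference over autosomal bins 0.113 in KO and 0.103 in WT) than those of input (0.0253 and 0.0239).

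V1R receptors are G protein-coupled receptors of sensory neurons in the vomeronasal organ, where they detect pheromones and other social cues and signal through the G protein subunit Gnai2 and the channel Trpc2. Each neuron is thought to express a single receptor gene, and the genes lie in large tandem arrays that differ in gene content between mouse strains. H2AX is a histone H2A variant found throughout the genome. It is phosphorylated to γH2AX in chromatin around DNA breaks, and SIRT7 is a nuclear deacylase of the sirtuin family that acts on chromatin.

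How alike neighbouring genes are bears on how reads can be placed. Likeness was measured here only in short upstream sequences, a small part of each bin, and the clusters differed in these. The 250 bases before the start that RefSeq's promoter table (GRCm38.p6) uses for each gene were taken from that table, which held them for 200 of the 357 genes, and every gene was aligned with the others of its bin. For 7 of the 200 that start lies inside the annotated span of the gene, so the bases printed or aligned are not all outside it. Bases are printed 5′ to 3′ on the gene's strand. Of the long chromosome 7 array 1 of its 51 identical pairs is shown, the first by symbol, whose genes lie in different bins: Vmn1r101 (chr7:20442594-20442843, minus strand) and Vmn1r149 (chr7:22438230-22438479, minus strand) were identical at 250 of 250 bases.
Vmn1r101: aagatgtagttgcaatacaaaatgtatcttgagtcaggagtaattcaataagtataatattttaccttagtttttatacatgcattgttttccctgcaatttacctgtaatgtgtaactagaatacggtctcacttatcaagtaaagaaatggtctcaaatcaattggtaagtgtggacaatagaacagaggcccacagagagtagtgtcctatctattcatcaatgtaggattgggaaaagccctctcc
Vmn1r149: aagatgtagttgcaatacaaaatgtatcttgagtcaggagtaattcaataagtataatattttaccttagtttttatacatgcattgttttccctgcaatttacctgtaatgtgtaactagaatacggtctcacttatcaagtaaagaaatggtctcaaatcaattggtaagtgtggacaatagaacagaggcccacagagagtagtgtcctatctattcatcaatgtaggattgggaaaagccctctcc

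The bin Vmn1r-ps92 is shown for contrast, with its most and its least alike pair, and capitals there mark the bases that were not identical in the alignment. Vmn1r207 (chr13:22726623-22726872, minus strand) and Vmn1r209 (chr13:22806519-22806768, minus strand) shared 236 of 251 aligned positions (94.0%).
Vmn1r207: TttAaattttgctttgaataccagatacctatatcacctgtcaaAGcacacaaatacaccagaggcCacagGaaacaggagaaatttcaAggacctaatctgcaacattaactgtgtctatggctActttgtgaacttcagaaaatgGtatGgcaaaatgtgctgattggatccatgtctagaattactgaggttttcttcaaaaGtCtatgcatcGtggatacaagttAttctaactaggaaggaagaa
Vmn1r209: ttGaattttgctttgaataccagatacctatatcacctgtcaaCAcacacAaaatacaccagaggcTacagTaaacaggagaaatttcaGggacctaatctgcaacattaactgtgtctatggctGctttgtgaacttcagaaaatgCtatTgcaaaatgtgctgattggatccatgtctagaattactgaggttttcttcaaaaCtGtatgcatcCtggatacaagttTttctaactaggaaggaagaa

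Vmn1r205 (chr13:22592931-22593180, minus strand) and Vmn1r212 (chr13:22884162-22884411, minus strand) shared 141 of 315 aligned positions (44.8%). The start used for Vmn1r212 lies 163 bases inside its annotated span.
Vmn1r205: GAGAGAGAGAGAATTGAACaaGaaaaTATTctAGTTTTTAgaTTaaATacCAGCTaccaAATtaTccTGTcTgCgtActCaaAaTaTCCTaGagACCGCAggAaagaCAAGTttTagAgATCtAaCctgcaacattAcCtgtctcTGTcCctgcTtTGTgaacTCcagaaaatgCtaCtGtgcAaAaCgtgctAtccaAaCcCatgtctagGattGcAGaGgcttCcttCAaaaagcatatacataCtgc
Vmn1r212: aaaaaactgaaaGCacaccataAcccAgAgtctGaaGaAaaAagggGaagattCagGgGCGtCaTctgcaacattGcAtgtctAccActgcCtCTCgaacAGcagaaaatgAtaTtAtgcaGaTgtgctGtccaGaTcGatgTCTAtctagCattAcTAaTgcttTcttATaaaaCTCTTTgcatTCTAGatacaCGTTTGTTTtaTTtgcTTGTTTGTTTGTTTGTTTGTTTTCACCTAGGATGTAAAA

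Across the array from Vmn1r91 to Vmn1r181, 52 of 82 genes with a sequence had at least 1 partner with an identical 250 bases, and 51 of 3321 pairs were identical. The median gene had a nearest neighbour in its own bin at 98.8% identity in the bin Vmn1r91, 99.2% in Vmn1r119 and 98.0% in Vmn1r-ps78. That median was 90.7% in the bin Vmn1r259, where 11 of 19 genes had a partner at 90% or more, against 23 of 23, 18 of 18 and 21 of 22 in the 3 bins before it. All other member bins with such sequences had lower medians, between 50.0% in Vmn1r85 and 87.7% in Vmn1r32. Over all members the median was 83.7%, close to that of bins rich in Vmn2r genes, the other vomeronasal receptor class (87.1%), below that of bins of Mup genes, which encode major urinary proteins (92.5%), and above that of odorant receptor bins (56.8%).

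**Figure D1:**
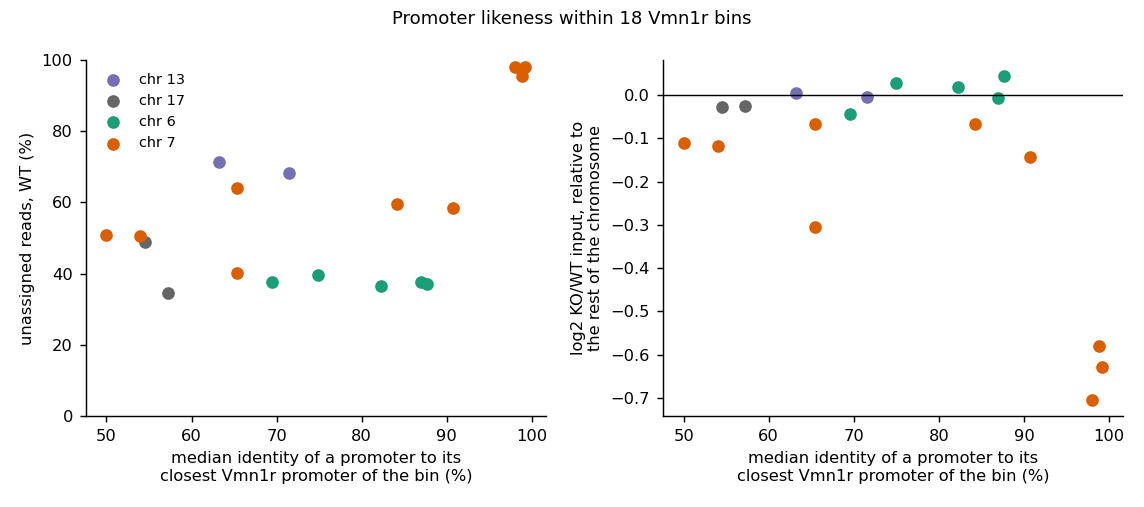
Member bins by the median percent identity of each gene's 250 upstream bases to its nearest Vmn1r neighbour in the bin (x axis), against the unassigned share of WT reads in percent (left) and the log2 ratio of KO to WT input relative to the rest of the chromosome (right). The 3 bins Vmn1r91, Vmn1r119 and Vmn1r-ps78 stand alone, with identity of 98.0% to 99.2%, unassigned shares of 95.4% to 98.0% and log2 ratios of -0.58 to -0.71.

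SIRT7-KO cells held fewer reads than WT over the long chromosome 7 array in input, H2AX and γH2AX alike. Input is given first because it measures DNA with no antibody. In the bin Vmn1r-ps78, which runs to Vmn1r258, input was 162 and 169 CPM (reads scaled to a common library size, adjusted by TMM) in the NT-named and Xray-named KO libraries, against 272 and 282 in the WT libraries. Both KO libraries lay far below both WT libraries, and the gap was larger than that within either pair. For H2AX the KO libraries had 178 and 180 CPM there, against 299 and 308 for WT, and for γH2AX they had 172 and 164, against 281 and 269. The log2 change from WT to KO was -0.74 (SE 0.0381, n = 2 against 2, adjusted p = 1.77e-06 by edgeR's quasi-likelihood test) in input, -0.77 in H2AX and -0.71 in γH2AX.

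The other bins of the array fell less than Vmn1r-ps78 in each assay. In the bin Vmn1r91, which ends with Vmn1r118, the KO input libraries had 171 and 175 CPM and the WT ones 264 and 267. In the bin Vmn1r119, they had 129 and 129 CPM against 202 and 207 for WT. Neither bin's groups overlapped, and the log2 changes were -0.62 and -0.67 in input, -0.67 and -0.69 in H2AX, and -0.60 and -0.65 in γH2AX. The array's last bin, Vmn1r259, gave 233 and 241 CPM for KO input against 264 and 273 for WT, a log2 change of -0.18 with groups that did not overlap. Relative to the rest of the chromosome, the bin before the array changed by 0.03 in input and the bin after it by 0.00, and neither was called.

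**Figure D2:**
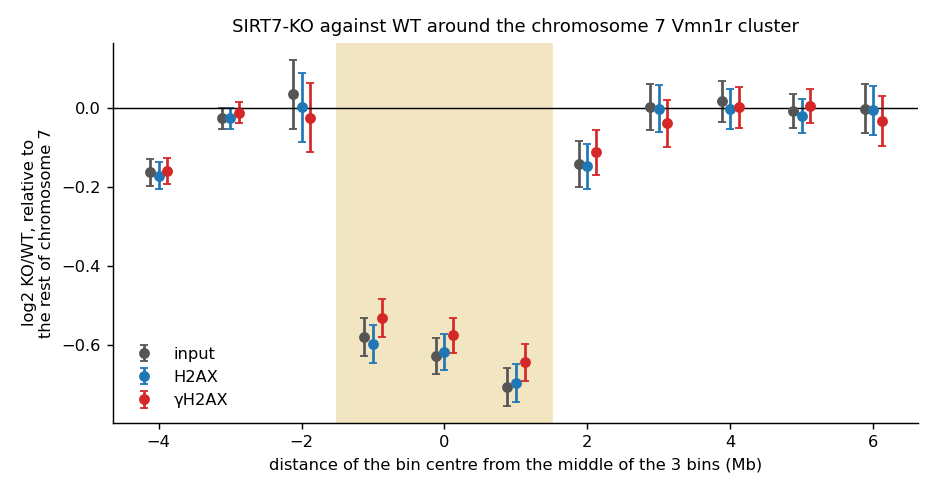
Log2 ratio of SIRT7-KO to WT relative to the rest of chromosome 7 (y axis) in 1 Mb bins around the long Vmn1r array of chromosome 7, plotted by distance in Mb (x axis), for input, H2AX and γH2AX; bars are 1 SE of the edgeR fit (n = 2 against 2). The 3 bins Vmn1r91, Vmn1r119 and Vmn1r-ps78 (shaded) lie between -0.53 and -0.71 in all 3 assays, and the next bin, Vmn1r259, between -0.11 and -0.15.

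Over all 22 members, 17 were lower and 1 higher in KO γH2AX, 19 lower and 1 higher in H2AX, and 17 lower and 1 higher in input. These counts stand against a background in which whole chromosomes differed between the cells. Of 2582 bins tested, 30.1% were lower and 30.1% higher in γH2AX, 32.6% and 30.6% in H2AX, and 25.4% and 32.1% in input. The median member changed by -0.18, -0.21 and -0.18 on the log2 scale, beside -0.03, -0.04 and -0.01 for all bins. The single higher member in each assay was the chromosome 18 bin Vmn1r-ps151, at 0.13 in γH2AX and input and 0.09 in H2AX. γH2AX rests on noisier pairs: fitted with its 4 libraries alone it gave 10 called members in place of 18, beside 35.6% of all bins called.

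Whole chromosomes moved with the genome-wide values, chromosome 6 among them. Of the 6, 5 fell in input (median -0.22), but 140 of the 141 other tested bins of chromosome 6 fell as well (median -0.25). Each bin was therefore also compared with its own chromosome, with the library's total over the other bins of that chromosome that are no members as the offset. On that scale 0 of the 6 chromosome 6 members were called in any of the 3 assays, with a median of 0.02 in input.

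Relative to their own chromosome, 5 members were lower by γH2AX, 4 by H2AX and 5 by input, and 0 members were higher. The share of all bins that fell on this scale was 3.99% for γH2AX, 3.52% for H2AX and 3.87% for input. The bins Vmn1r91, Vmn1r119 and Vmn1r-ps78 were called in each assay. Their log2 changes were -0.58, -0.63 and -0.71 in input (SE 0.0449 to 0.0486), -0.60, -0.62 and -0.70 in H2AX, and -0.53, -0.58 and -0.64 in γH2AX. In input the adjusted p of edgeR was 0.000155, 5.12e-05 and 4.3e-05. None of the 133 other tested bins of chromosome 7 changed as far in input, the lowest reaching -0.41 on the genome-wide scale. In γH2AX the call depended on the shared estimate of spread: with its 4 libraries fitted alone, 0 members were called (0.194% of all bins), and edgeR's adjusted p for these 3 bins was 0.206, 0.206 and 0.128.

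Expressed as a level relative to the median other bin of chromosome 7, input in the bin Vmn1r-ps78 was 0.957 ± 0.0182 (SD, n = 2) in WT and 0.587 ± 0.0145 (SD, n = 2) in KO. The bin Vmn1r91 went from 0.917 ± 0.00197 to 0.613 ± 0.00883 (SD, n = 2 each), and the bin Vmn1r119 from 0.707 ± 0.00735 to 0.457 ± 0.000488 (SD, n = 2 each). In WT cells the receptor bins thus stood near or below a usual bin of their chromosome, and in KO cells well below it. Relative levels of H2AX and γH2AX in Vmn1r-ps78 moved from 0.979 to 0.612 and from 0.905 to 0.578.

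The bin Vmn1r-ps53 of chromosome 7, a gene array from Vmn1r-ps53 to Vmn1r-ps59, was the fourth member called in all 3 assays. Its input was 179 and 182 CPM for KO against 228 and 229 for WT, with no overlap. Relative to its chromosome it fell by 0.30 on the log2 scale in input (SE 0.0450, edgeR adjusted p = 0.00337), 0.32 in H2AX and 0.27 in γH2AX. Its neighbour Vmn1r85 was called in input alone, at -0.11 (adjusted p = 0.0447 by edgeR), and lost the call when any 1 of the 4 input libraries, or the X chromosome, was left out. The γH2AX call of Vmn1r-ps139 on chromosome 17 (-0.17, edgeR adjusted p = 0.0295) depended on its scale: with the bin at 39 Mb of that chromosome left out of the total, the value was 0.01, and in H2AX and input it was -0.01 and -0.03. That alternative was chosen after the data were seen. The bin Vmn1r259, at -0.14 in input, was not called (edgeR adjusted p = 0.242).

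**Figure D3:**
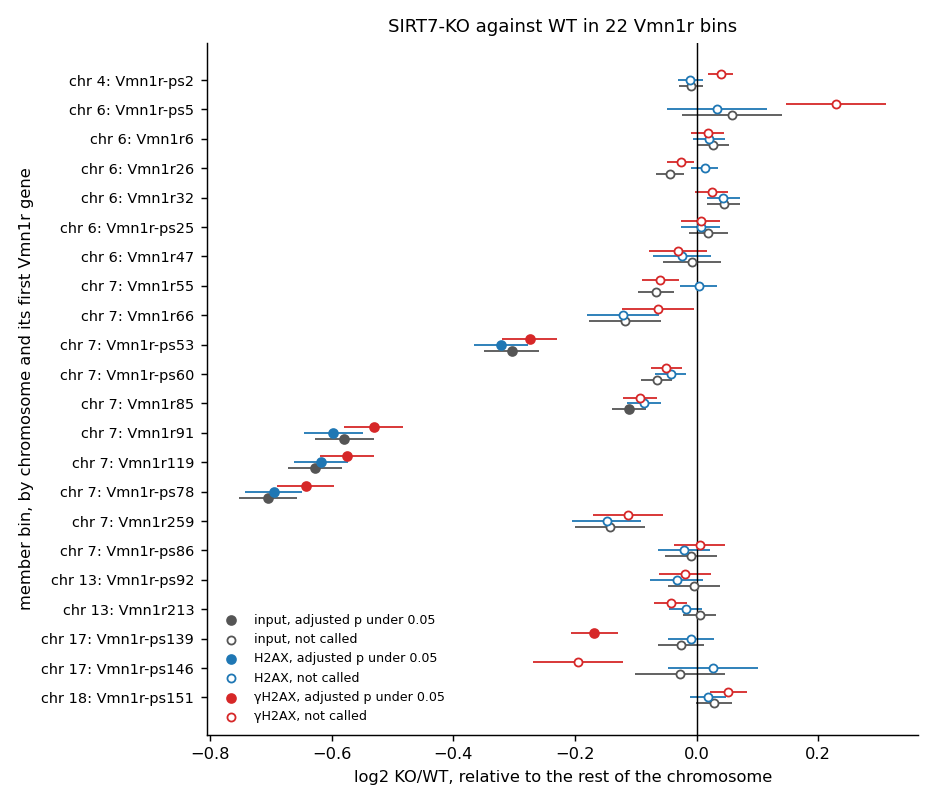
Log2 ratio of SIRT7-KO to WT relative to the rest of the chromosome (one axis) for the 22 tested members (other axis, named by first Vmn1r gene and chromosome), with input, H2AX and γH2AX as separate points and bars of 1 SE (n = 2 against 2). Bins Vmn1r91, Vmn1r119 and Vmn1r-ps78 lie at -0.53 to -0.71, Vmn1r-ps53 at -0.27 to -0.32, and most others near 0.

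No member changed in an antibody beyond its change in input by the test of that difference. The KO against WT change was called in 0 members for γH2AX relative to input, 0 for H2AX relative to input and 0 for γH2AX relative to H2AX. Unadjusted p under 0.05 was reached by 0 members in each, and DESeq2 called 0 as well. Few bins were called anywhere, 0.0387%, 0% and 0.155% of those tested. In the bin Vmn1r-ps78 the 3 values were 0.03, -0.02 and 0.05 on the log2 scale.

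Bins beside the arrays were mostly not called. Bins within 2 bins of a member that hold no Vmn1r gene numbered 42, of which 34 were tested, and relative to the chromosome 0 of them were called in input and H2AX and 1 was lower in γH2AX. Of all 2582 tested bins, 181, 153 and 188 were called in input, H2AX and γH2AX on that scale. Few calls would thus be usual among so few bins. The 11 bins with only 1 or 2 Vmn1r genes, 15 genes in all and just outside the rule, gave 0 calls in each assay on that scale, with input changes from -0.09 to 0.06. Among them was the bin that follows the array, whose input change was 0.00 relative to its chromosome.

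Other chemosensory families were set beside the members on the same scale, in input. Of all bins, 3.14% were higher and 3.87% lower there. Of the 24 bins rich in Vmn2r genes, 1 was higher and 0 lower (median 0.01), and of the 65 odorant receptor bins 4 were higher and 6 lower (median -0.01). Of the 3 bins of Mup genes, which encode major urinary proteins that carry pheromones, 2 were lower, with a median of -0.28. The bins of 24 genes listed for chemosensory signalling and receptor choice, not all of them vomeronasal, gave 1 higher, that of Ebf1 (0.13), and 0 lower. Among them Trpc2, the transduction channel, had 0.00 (SE 0.0222) in its bin, Gnai2, the G protein subunit coupled to V1R receptors, 0.20 (SE 0.0714, edgeR adjusted p = 0.180), and Gnao1, the subunit coupled to V2R receptors, -0.01. A difference between these families was not tested.

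Within WT cells, the members did not share a level of H2AX or γH2AX over input. γH2AX exceeded input in 4 members and lay below it in 6, H2AX exceeded input in 7 and lay below in 7, and γH2AX exceeded H2AX in 2 and lay below in 3. The share of all bins called in either direction was 69.9%, 56.4% and 12.2%. The same comparisons in KO gave 5 and 6, 4 and 6, and 3 and 0, with backgrounds of 61.5%, 49.6% and 3.8%. The bin Vmn1r47 of chromosome 6 was the highest member in both antibodies, with WT γH2AX over input at 0.22 and WT H2AX over input at 0.20 on the log2 scale, and its neighbour Vmn1r-ps25 had 0.16 and 0.14. The lowest was Vmn1r-ps139, at -0.24 in γH2AX. In the 3 bins of the chromosome 7 array with the KO fall, WT H2AX over input was 0.11, 0.14 and 0.13, beside 0.12 for the median other bin of that chromosome, and WT γH2AX over input was -0.02, 0.01 and -0.01, beside a median of 0.09. These counts moved with single libraries: leaving out each in turn gave 4 to 12 members for WT H2AX over input and 0 to 9 for WT γH2AX over H2AX, with 0 when either H2AX library was absent.

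Clones were read from the second table, in which H2AX and γH2AX but no input were matched to labelled samples. The KO clones held fewer reads than WT over the array. In the bin Vmn1r-ps78, H2AX was 155 and 162 CPM in the KO clones and 314 and 301 in WT, and γH2AX was 163 and 193 against 290 and 284. Neither pair of groups overlapped. The H2AX change was -0.96 (SE 0.183, edgeR adjusted p = 0.000977), with -0.83 in Vmn1r91 and -0.81 in Vmn1r119, and 1 of the 133 other bins of chromosome 7 was lower than Vmn1r-ps78. In all, 13 members were lower and 1 higher in H2AX, beside 27% and 25.9% of all bins. Fewer members were called without the second KO clone library, a fit that leaves 1 library in that group. In γH2AX 0 members were called, beside 0.658% of all bins, although 7 had an unadjusted p under 0.05 and DESeq2 called 1, beside 17.4% and 1.63% of all bins. The 3 array bins stood at -0.54, -0.55 and -0.69 there (edgeR adjusted p 0.212, 0.212 and 0.127), and relative to their own chromosome all 3 were called lower, at -0.60 in Vmn1r-ps78 (edgeR adjusted p = 0.00292), where 1.39% of all bins were lower and 13.1% higher. The fourth member called on that scale, Vmn1r-ps146 of chromosome 17, turned from -0.27 genome-wide to 0.29. Genome-wide, the median other bin of chromosome 17 had -0.34 and the lowest -2.15, and 64 of 90 lay below this member. These WT libraries include the one that both tables share, so the result does not stand apart from the first. Clone and WT libraries also belong to different sets of samples, so KO status cannot be told apart from the set. H2AX changes of other members differed from those of the first table. Vmn1r66 had -0.67 beside -0.19 there, Vmn1r-ps139 -0.89 beside -0.20, and Vmn1r-ps25 0.15 beside -0.25.

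No difference between the KO+WT clones and the KO clones was detected over the array. In the bin Vmn1r-ps78 the KO+WT clones had 153 and 161 CPM of H2AX and 149 and 180 of γH2AX, where the KO clones had 155 and 162 and 163 and 193. The labels make these the same 2 clones, but do not tie the column numbers to them. Each KO+WT library lay below the KO library of the same number. Across members 0 were called in γH2AX (background 0.0387%) and 0 in H2AX (0%), and 0 for γH2AX relative to H2AX (0%). DESeq2 called 0, and 0 members had an unadjusted p under 0.05 in any of these comparisons. The log2 difference in Vmn1r-ps78 was -0.11 in γH2AX (SE 0.190) and -0.02 in H2AX. With the replicate number as a block, 0 members were called and the γH2AX difference in Vmn1r-ps78 was -0.11 (edgeR adjusted p = 0.856), or -0.12 with the KO and KO+WT clones alone (edgeR adjusted p = 0.365), an alternative chosen after seeing the data.

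The HY clones had more reads over the array than the KO clones, but no member passed the test, and the 2 HY libraries lay apart. In the bin Vmn1r-ps78 H2AX was 279 CPM in HY library 1 and 193 in HY library 2, and γH2AX was 284 and 202. The first lay near WT and the second nearer the KO clones, and both exceeded every KO clone library. The differences from the KO clones were 0.57 in H2AX and 0.45 in γH2AX, above those of all 133 other bins of chromosome 7, with edgeR's adjusted p at 0.200 and 0.384. In all, 0 members were called in γH2AX and 0 in H2AX, beside 0.0387% of bins in each. Unadjusted p under 0.05 was reached by 2 and 4 members, beside 10.6% and 11.3% of all bins. DESeq2 called 0 and 3 members, beside 5.23% and 5.85% of bins, and edgeR on the compared H2AX groups alone called 3, beside 5% of bins.

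**Figure D4:**
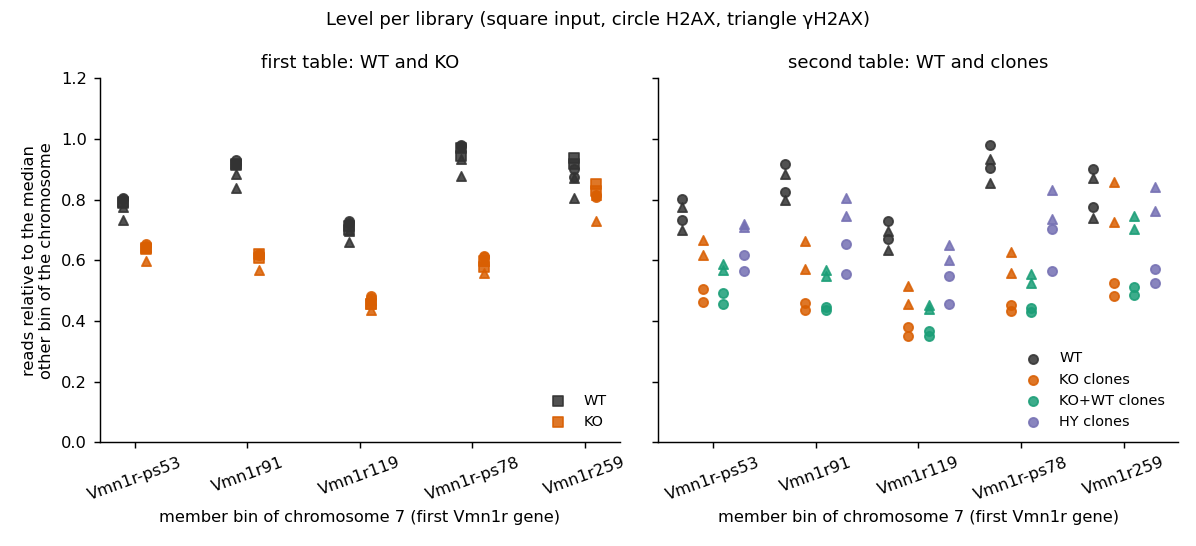
Reads relative to the median other bin of the chromosome (y axis) in each library for member bins of chromosome 7 (x axis, named by first Vmn1r gene), in the table of WT and KO cells and in the table of clones; each point is 1 library, square for input, circle for H2AX and triangle for γH2AX. KO and KO+WT clone libraries lie together below WT in Vmn1r91, Vmn1r119 and Vmn1r-ps78, and the 2 HY libraries are apart; in Vmn1r-ps78 input is 0.957 ± 0.0182 in WT and 0.587 ± 0.0145 in KO (SD, n = 2).

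Over the 12 clone libraries, γH2AX exceeded H2AX in 10 members and lay below it in 2, beside 39.8% and 38.3% of all bins. The members with lower γH2AX were Vmn1r-ps25 (-0.46) and Vmn1r47 (-0.51) of chromosome 6, which had no such difference in the WT libraries of the first table (0.02 and 0.01). The largest excess was 0.60 in Vmn1r-ps139. In the array bins with the KO fall the values were 0.14, 0.10 and 0.09 and were not called. With each chromosome as its own scale, all 22 members were called, 20 higher and 2 lower, where 52.2% of all bins were higher and 37.6% lower.

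The parental counts show how little of the array's reads could be told apart by parent. The deposited tables split each library into genome1, genome2 and unassigned, and the 6 WT libraries of the second table were used. In the bin Vmn1r-ps78 the unassigned share ran from 97.5% to 98.4% over the 6 libraries, with a mean of 98.0%, and the means were 95.4% in Vmn1r91 and 97.9% in Vmn1r119. The median other bin of chromosome 7 had 33.6%. The share dropped at the array's borders, to 35.7% in the bin before Vmn1r91, 58.5% in Vmn1r259 and 32.3% in the bin after it. The widest 95% Clopper-Pearson interval of any member's share extended 0.707 percentage points to either side, which covers counting error only.

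Other members with many unassigned reads did not all fall in KO. The bins Vmn1r-ps92 and Vmn1r213 of chromosome 13 had 68.3% and 71.2% unassigned, and input changes relative to their chromosome of 0.00 in both. Vmn1r-ps53 had 64.0% and fell. Of the 27 autosomal bins with over 90% unassigned, 3 of them members, 7 were lower and 0 higher in KO input on that scale, and their median was -0.04. The 3 members, Vmn1r91, Vmn1r119 and Vmn1r-ps78, were themselves among the 7. A bin of Mup genes on chromosome 4 (60000001 to 61000000) was also among the 7, at -0.51 with 92.6% unassigned. At over 80% unassigned, 9 of 64 bins were lower and 3 higher, with a median of -0.01. Of all 2582 tested bins, 181 were called in either direction on that scale. Across 22 members Spearman's rho between unassigned share and KO change was -0.50. Across the 18 members with upstream sequences it was -0.24 between nearest identity and KO change, and 0.33 between nearest identity and unassigned share. Bins of an array share libraries and sequence, so these are descriptions. The part that unassigned or repeated sequence plays in the KO fall was not tested.

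Of the reads that were assigned, more went to genome1 in most members. Genome1 was higher in 19 of 22 members in each assay, with medians of 0.71 for γH2AX, 0.69 for H2AX and 0.74 for input on the log2 scale, beside -0.01, -0.01 and 0.01 for all bins. The background share of bins with genome1 higher was 48.8%, 48.7% and 49.2%. Chromosomes as a whole leaned one way, as the other bins of chromosome 7 did with a median of 0.61 in input, so the comparison was repeated within chromosomes. Genome1 was then higher in 16 members and lower in 4 in γH2AX (background 56.5% and 29.9%), 16 and 4 in H2AX (55.6% and 29.5%), and 17 and 3 in input (57.6% and 30.5%). This scale sets a bin against the total of its chromosome, not against the median bin. In input, Vmn1r26 and Vmn1r32 of chromosome 6 were called higher, at 0.25 and 0.26. Genome-wide they had 1.07 and 1.08, below the median other bin of that chromosome (1.09), where the lowest bin had -2.18.

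The bin Vmn1r-ps78 had the greatest parental difference of the members. Its assigned reads were 539 and 1049 for genome1 in the 2 input libraries and 158 and 249 for genome2, out of 43777 and 68482 in all. The log2 ratio was 1.74 in input, 1.92 in H2AX and 2.09 in γH2AX, and 1.30, 1.49 and 1.67 relative to the chromosome (edgeR adjusted p = 4.3e-09 in input). It rests on the few reads that could be assigned, and nearby Vmn1r91 and Vmn1r119 had 0.36 and 0.63 in input on the same scale. The chromosome 18 bin Vmn1r-ps151 leaned to genome2, at -0.65 in input, -0.78 in H2AX and -0.71 in γH2AX relative to its chromosome. In 6 members the direction turned with the scale. The bins Vmn1r-ps92 and Vmn1r213 went from -0.16 and -0.18 genome-wide to 0.11 and 0.09 within the chromosome in input. On chromosome 6, Vmn1r-ps25 and Vmn1r47 went from 0.52 and 0.65 to -0.29 and -0.17, and Vmn1r-ps5 from 0.79 to -0.02. On chromosome 4, Vmn1r-ps2 went from 0.44 to -0.02.

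**Figure D5:**
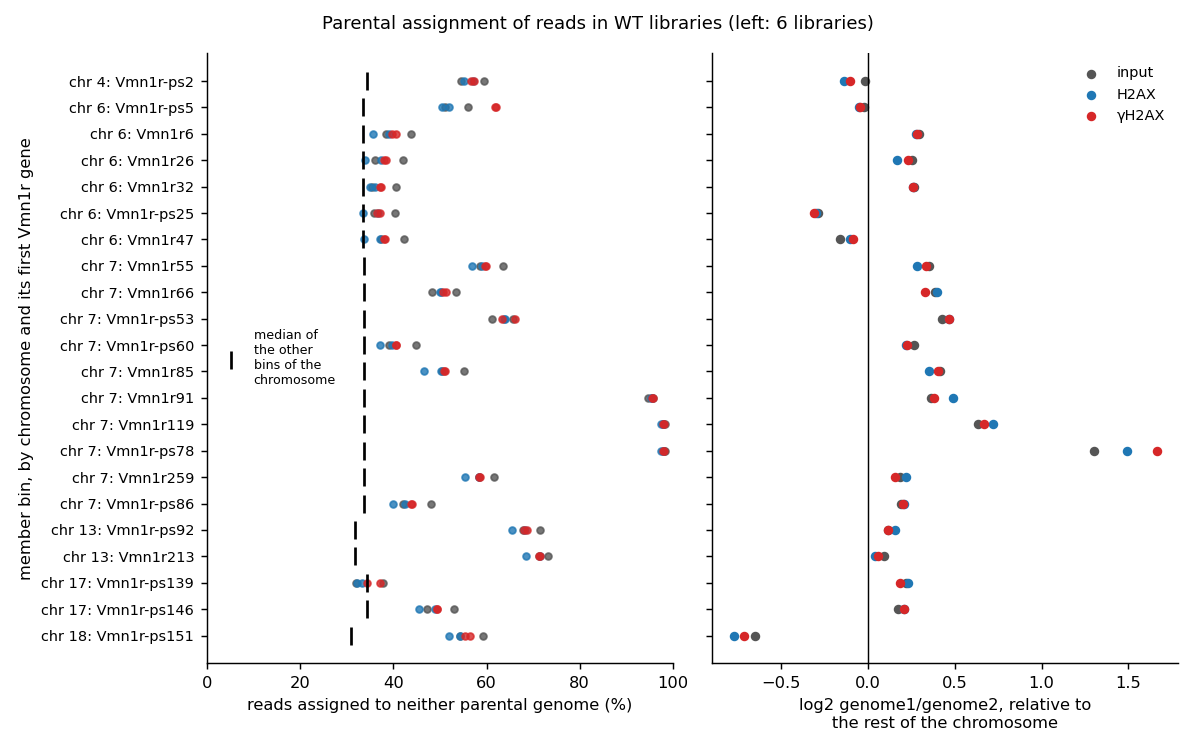
Members (rows, named by first Vmn1r gene) by the unassigned share of WT reads in percent (left; points are 6 libraries, black dashes the median other bin of the chromosome) and by the log2 ratio of genome1 to genome2 relative to the rest of the chromosome (right) in input, H2AX and γH2AX. Vmn1r91, Vmn1r119 and Vmn1r-ps78 reach 95.4% to 98.0% unassigned, and Vmn1r-ps78 has the highest ratios, 1.30 to 1.67.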

How the data were processed

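Input, H2AX and γH2AX were measured by ChIP-seq in the 24 labelled samples, 2 in each of 12 groups. What the authors deposited are 2 tables of unscaled read counts in bins of 1 Mb, split also by parental genome. Per the submitters' processing notes, the build was mm10 and the tools included Bowtie2 2.2.9, Trimmomatic 0.36, SAMtools 0.1.19 and deepTools 2.4.2. Their settings, the handling of duplicates and the parental assignment were not given in the sources used here. A bin full of near-identical genes can lose or share reads in alignment, depending on those settings.

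Columns were matched to samples or groups by name, and 96 of 144 columns of values were not used. They were parental columns of libraries matched to a group only, and input columns of clones. Tables were fitted apart. A bin of the autosomes or X was tested if its mean count reached 100, by edgeR's quasi-likelihood test (4.0.16, R 4.3.3) with TMM, a term for each group, spread estimated over all the libraries in a fit, and Benjamini-Hochberg adjustment over all tested bins at 0.05, two-sided. Parental counts had the library as a block. Every log2 change printed is from these fits unless an alternative is named, and SE is the standard error of the fit. Where own chromosome is named, the offset was the log total of the chromosome's other bins that are no members. Promoters were aligned with Biopython 1.88 (match 1, mismatch -1, gap open -2, extension -0.5). DESeq2 1.42.0, other scalings, other Vmn1r minimums and leaving out single libraries were alternatives, and scripts were tested on simulated data.

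All member bins are accounted for, bins are named by their first Vmn1r gene, and printed sequences are the most and least alike pair of the fullest bin and the first by symbol of the identical pairs of the array with the highest parental imbalance. The rule was written for proteins, and no protein table was used here, so upstream sequences took their place. Members and gene lists were chosen with earlier results of these data known. P-values for WT and KO measure the spread between these libraries, which may be technical and includes a deviation shared by libraries of like name. No exact permutation p is given, since 2 libraries against 2 allow none under 0.333.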

Additional observations from a re-analysis of the deposited data

How the results depend on the processing

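Numbers of members called, out of 22 unless said, moved by over 1.5 times as follows. With the compared groups fitted alone, calls were 10 (γH2AX, KO against WT), 0, 7 and 12 (γH2AX, H2AX and input, own chromosome), 1 and 0 (γH2AX against H2AX in WT and KO) and 3 (HY against KO clones, H2AX). DESeq2 gave 8 for γH2AX against H2AX in WT, 3 for HY against KO clones in H2AX and 1 for KO clones against WT in γH2AX, and DESeq2 size factors in edgeR gave 3 for the first of these. With 1 or more Vmn1r starts as the rule, the 11 bins with 1 or 2 starts joined the 22, so these counts have a larger total. Calls were then 18 and 19 (γH2AX against input in WT and KO), 21 (γH2AX against H2AX over clones) and 32 (genome1 against genome2, input). With 5 or more starts, or without -ps symbols, the total was below 22, and γH2AX against H2AX in KO gave 1. Scaling to autosomal bins gave 21, and own chromosome 22, for γH2AX against H2AX over clones, and own chromosome gave 4 for KO clones against WT in γH2AX. Leaving out 1 library gave 4 to 12 (H2AX against input in WT), 0 to 9 (γH2AX against H2AX in WT), 7 to 15 and 2 to 4 (γH2AX and H2AX against input in KO), 0 to 6 (γH2AX against H2AX in KO) and 9 to 13 (KO clones against WT, H2AX). The cause was not tested, except that fewer libraries or other members enter some of these fits. Shares of all bins called under these settings are mostly not given here, so the moves are not results about the members.

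Libraries of like name deviated together between KO and WT over autosomal bins (r = 0.961 in γH2AX, 0.692 in H2AX and 0.503 in input). They thus share a deviation, but the labels do not say what lies behind the names. The KO and KO+WT clones are the same by label, and same-numbered libraries deviated together (r = 0.855 in γH2AX, 0.939 in H2AX), though no label ties the numbers to clones. The block left their calls at 0. With the replicate block, KO against WT gave 18, 20 and 18 calls in γH2AX, H2AX and input, as without it, and KO clones against WT gave 3 in γH2AX in place of 0. The shares of all bins called with the block are not given here.

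Of 6974 values of single bins under alternatives, 6611 kept direction and side of the threshold, 226 lost and 114 gained the call, and 23 values reversed direction while called before, after or both. One was Vmn1r-ps139, own chromosome, γH2AX, at 0.0115 without the bin at 39 Mb. The other 22 reversed with own chromosome as the scale. Vmn1r-ps2 over clones (0.116) and, in KO clones against WT, Vmn1r-ps146 in γH2AX (0.287) and Vmn1r213 in H2AX (-0.0946) were called only with own chromosome. Vmn1r-ps2 in H2AX (-0.0440) was called only without it. The others, in genome1 against genome2 and all called genome-wide, were, for γH2AX, H2AX and input in turn, Vmn1r-ps92 (0.117, 0.153, 0.112), Vmn1r213 (0.0538, 0.0407, 0.0927), Vmn1r-ps2 (-0.108, -0.137, -0.0159), Vmn1r-ps5 (-0.0488, -0.0502, -0.0237), Vmn1r-ps25 (-0.311, -0.300, -0.291) and Vmn1r47 (-0.0877, -0.107, -0.165).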
